A study of Mus musculus with 6 samples.

Results

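C530044C16Rik, Aspg, A2m, Neat1, Cacna2d3, Sorcs1, Pawr, Cpne8 and Asap3 are 9 of the 32285 genes counted in single nuclei of the mouse brain after injection of lysophosphatidic acid (LPA), a lipid of the blood that signals through G protein-coupled receptors. They were chosen because their UMI counts rose in the astrocytes of LPA-injected mice, so their LPA and vehicle levels in astrocytes describe that choice and carry no test here. The choice did not use their levels in the other cell types or those of related and neighboring genes. Their levels in Gfap-rich against other astrocytes of the same library are not independent of it and are given as a description. A UMI (unique molecular identifier) marks 1 captured RNA molecule.

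C57BL/6 S-56 mice, a mouse strain, received 5 µl of LPA or of its vehicle, a solution of BSA, in the right lateral ventricle at P7 (postnatal day 7), and brains were taken at P15. LPA given in this way is the study's model of post-hemorrhagic hydrocephalus, in which blood in the ventricles is followed by a build-up of cerebrospinal fluid. There were 3 LPA and 3 vehicle libraries, with no uninjected brain, and nuclei were sorted for absence of NeuN, a neuronal protein, from whole brains without olfactory bulbs and cerebellum. The LPA concentration used for these 6 libraries was not given in the sources used here. Judged by UMIs of Xist and of Y-linked genes, LPA library 1 and vehicle libraries 1 and 3 were male. LPA libraries 2 and 3 and vehicle library 2 were female, so sex was not balanced between the treatments.

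After filtering, 57443 nuclei remained, from libraries of 48852970 to 65688644 UMIs each, with 3732 to 4578 UMIs in the median nucleus. Cell types were rebuilt from marker genes and so stand for nuclei that resemble each type. There were 10315 astrocytes in 3 clusters, 14377 neurons, 13201 nuclei of the oligodendrocyte lineage, 7758 vascular cells, 2198 ependymal cells, 1877 immune cells and 7717 nuclei without a name. Nuclei carrying neuronal markers were thus present in number despite the NeuN sort. Between 16 and 39 nuclear barcodes were shared by any pair of libraries.

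Astrocytes support neurons, buffer ions and transmitters and line vessels and the brain surface. After injury they become reactive, and the intermediate filament gene Gfap, the gene most used to see this state, rises. Among the 9 genes, A2m encodes alpha-2-macroglobulin, a secreted inhibitor that traps proteases, and Aspg encodes an enzyme of the asparaginase family. Neat1 is a long noncoding RNA on which nuclear bodies called paraspeckles assemble, and C530044C16Rik is annotated as a long intergenic noncoding RNA. Cacna2d3 encodes an auxiliary subunit (alpha2delta-3) of voltage-gated calcium channels, Sorcs1 a sorting receptor with a VPS10 domain, Asap3 a GTPase-activating protein for Arf proteins, which steer membrane traffic and the actin skeleton, and Cpne8 a copine, a protein that binds phospholipids in a calcium-dependent way. Pawr encodes Par-4, a protein known for promoting apoptosis.

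In the GRCm38 annotation, C530044C16Rik lies at chr6:50776115-50815033 (+), A2m at chr6:121635376-121679227 (+), Aspg at chr12:112106679-112127559 (+), Asap3 at chr4:136206365-136245216 (+) and Pawr at chr10:108332121-108414240 (+). On the minus strand lie Neat1 at chr19:5824708-5845478, Sorcs1 at chr19:50143299-50678646, Cacna2d3 at chr14:28904943-29721864 and Cpne8 at chr15:90487482-90679432. The gene bodies ran from 20771 bp (Neat1) to 816922 bp (Cacna2d3). Intronic reads were counted, so levels were not compared between genes.

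Of the 9 genes, 7 had a promoter sequence in the RefSeq table (build GRCm38.p6, 250 bases before to 50 bases after the start of the gene). A2m and Neat1 had none there. Below are C530044C16Rik (chr6:50775865-50776164, +) and Aspg (chr12:112106433-112106732, +), the genes with the largest LPA difference, and Pawr (chr10:108331939-108332238, +), which, unlike them, was not called in Gfap-rich nuclei of vehicle libraries. Capitals mark GGGGCGG, the core of the GC box, read on either strand.
C530044C16Rik: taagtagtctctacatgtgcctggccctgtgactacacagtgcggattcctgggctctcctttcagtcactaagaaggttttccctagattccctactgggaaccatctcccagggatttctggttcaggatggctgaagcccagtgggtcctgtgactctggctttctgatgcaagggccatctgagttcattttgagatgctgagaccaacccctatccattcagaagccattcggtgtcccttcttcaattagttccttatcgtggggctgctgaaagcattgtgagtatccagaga
Aspg: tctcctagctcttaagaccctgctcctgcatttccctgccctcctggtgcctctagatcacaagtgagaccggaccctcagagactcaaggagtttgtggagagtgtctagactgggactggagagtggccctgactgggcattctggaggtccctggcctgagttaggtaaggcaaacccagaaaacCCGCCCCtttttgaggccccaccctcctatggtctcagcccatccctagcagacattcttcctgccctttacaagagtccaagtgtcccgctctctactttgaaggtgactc
Pawr: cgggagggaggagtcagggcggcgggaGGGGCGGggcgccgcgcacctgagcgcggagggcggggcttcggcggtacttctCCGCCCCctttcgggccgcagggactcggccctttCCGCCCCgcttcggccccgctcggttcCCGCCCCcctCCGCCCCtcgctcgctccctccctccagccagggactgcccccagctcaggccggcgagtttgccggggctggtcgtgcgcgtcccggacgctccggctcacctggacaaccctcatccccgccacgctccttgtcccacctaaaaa
The promoters fell into 2 kinds. C530044C16Rik and Aspg had 3 CG dinucleotides each and a GC content of 50% and 55.3%, near the median of 52.7% over 32851 promoters. The promoters of Asap3, Cpne8, Pawr, Sorcs1 and Cacna2d3 had GC contents of 67.7% to 81.3% and 21 to 50 CG dinucleotides. GGGGCGG was present in 4 of 7, which were Aspg, Cacna2d3, Pawr and Asap3, against 23.2% of all promoters. TTCNNNGAA (in 8.30% of all promoters), TGANTCA (7.81%), GGAATG (14.7%) and TATAAA (13.6%), letters bound by STAT, AP-1, TEAD and TATA-binding factors, were in none of these 7 windows on either strand. A match or its absence describes only the letters of the window.

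All values by library are UMIs per 1000000 UMIs (CPM) of the nuclei named, scaled by edgeR's TMM factors, and values by Gfap bin, cluster or single cell type further on are CPM without these factors. C530044C16Rik stood at 47.4, 44.3 and 49.5 CPM in astrocytes of the 3 LPA libraries against 5.7, 4.2 and 3.3 in the 3 vehicle libraries. Aspg stood at 43.5, 40.1 and 53.0 CPM against 6.8, 6.0 and 7.8. These 2 genes had few counts in vehicle astrocytes, with 62 and 99 UMIs over 3 libraries.

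A2m was at 67.5, 64.7 and 62.2 CPM in LPA astrocytes and at 23.3, 20.0 and 20.2 in vehicle astrocytes. Pawr was at 35.1, 33.1 and 33.8 CPM against 11.9, 9.8 and 9.8. Both had a low but steady vehicle level with little spread between mice.

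Neat1 was at 177.5, 151.9 and 185.9 CPM with LPA and 85.4, 71.5 and 78.3 with vehicle. Cacna2d3 was at 240.1, 219.1 and 247.2 CPM with LPA and 109.8, 112.6 and 116.7 with vehicle. Sorcs1 was at 141.3, 134.6 and 153.4 CPM with LPA and 66.1, 69.4 and 75.2 with vehicle. These 3 genes had the smallest differences of the 9 on the log2 scale.

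Cpne8 was at 112.5, 100.3 and 121.6 CPM against 48.2, 45.1 and 36.6. Asap3 was at 70.7, 69.6 and 87.9 CPM against 33.2, 30.5 and 31.1. As for the other 7 genes, every LPA library was above every vehicle library.

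On the log2 scale the LPA minus vehicle differences were 3.45 for C530044C16Rik, 2.73 for Aspg, 1.72 for Pawr, 1.63 for A2m, 1.37 for Cpne8, 1.27 for Asap3, 1.14 for Neat1, 1.06 for Cacna2d3 and 1.02 for Sorcs1. Their median was 1.37, beside -0.01 over the 14589 genes tested in astrocytes, of which 4.58% were called higher with LPA. A call throughout is a Benjamini-Hochberg adjusted p below 0.05 in edgeR's quasi-likelihood test with a log2 difference of at least 0.25. Since the genes were selected on this difference, nothing is read from these counts. In a sum over nuclei, fewer nuclei with a transcript and less RNA per nucleus cannot be told apart.

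Gfap, not one of the 9, was at 264.9, 244.8 and 308.6 CPM in LPA astrocytes and at 116.4, 103.6 and 97.9 in vehicle astrocytes. Astrocytes with at least 2 Gfap UMIs were called Gfap-rich. They made up 18.3%, 16.9% and 20.3% of the astrocytes in LPA libraries (315, 350 and 322 nuclei) and 7.21%, 5.80% and 4.57% in vehicle libraries (80, 115 and 84 nuclei). Gfap-rich nuclei had 3310.5 to 3646 UMIs in the median with LPA and 2465 to 2955 with vehicle, and the other astrocytes 3251 to 3394 and 2539 to 3025.5. Depth was therefore close between the kinds of nuclei within a library but higher in LPA libraries.

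Gfap-rich and other astrocytes were compared within libraries, with the library as a block. Since Gfap-rich nuclei held 17.4% to 21.9% of astrocyte UMIs with LPA and 4.63% to 7.25% with vehicle, a gene higher in Gfap-rich nuclei was more likely to be chosen. All 9 were called higher in Gfap-rich than in other astrocytes, where 9.59% of 13456 genes tested were called higher, as were 71.7% of the 661 tested genes that had been called higher with LPA in astrocytes. Nothing is therefore read from the count of 9. The secreted and enzyme genes and the noncoding C530044C16Rik had the largest differences. C530044C16Rik was higher by 3.33 on the log2 scale (SE 0.13), Aspg by 3.13 (SE 0.12) and A2m by 2.65 (SE 0.10), each in 6 of 6 libraries. Asap3 was higher by 2.12 (SE 0.11), Cpne8 by 1.82 (SE 0.11), Neat1 by 1.79 (SE 0.13) and Cacna2d3 by 1.35 (SE 0.10), again in 6 of 6 libraries. Pawr was higher by 1.57 (SE 0.17) in 4 of 6 libraries and Sorcs1 by 1.28 (SE 0.12) in 5 of 6. These differences are over all astrocyte clusters together. The median over the 9 genes was 1.82, beside -0.01 over all genes tested.

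**Figure D1:**
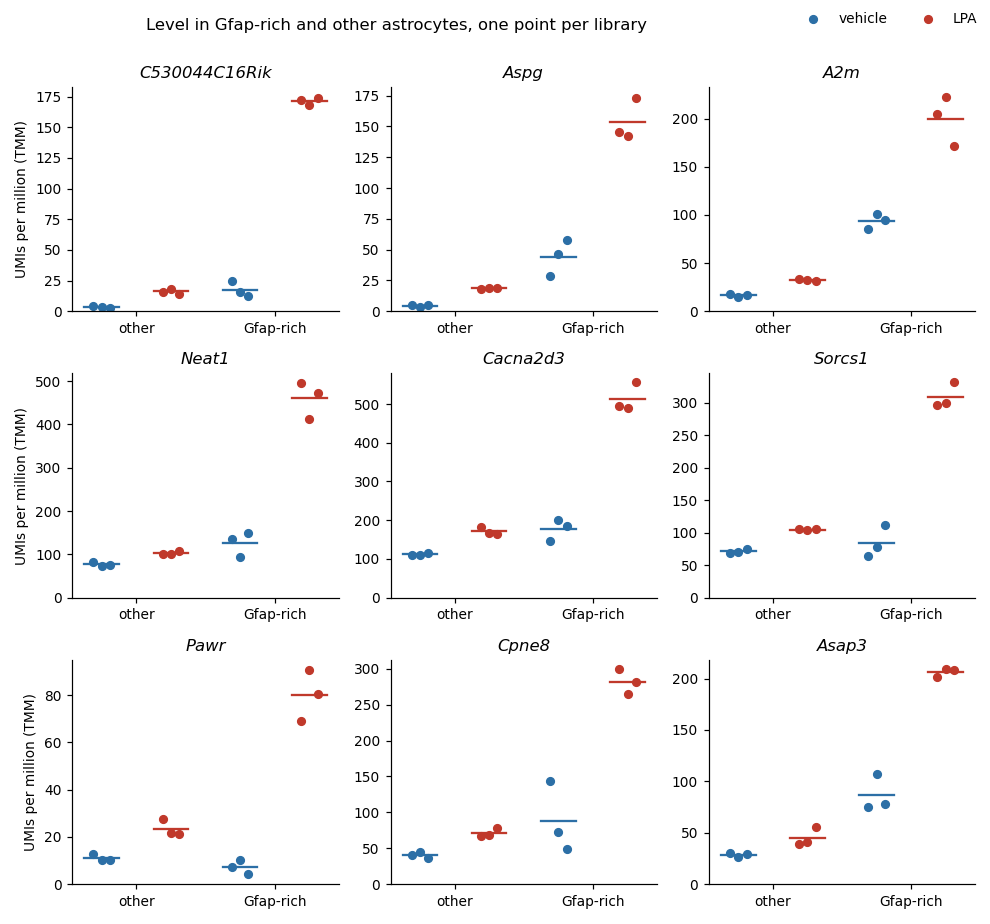
Level of each gene in CPM (TMM scaled, linear axis from 0) in Gfap-rich and other astrocytes of each LPA and vehicle library, 1 point per library. Every Gfap-rich LPA point lies above the other 3 groups of points for all 9 genes, whereas Pawr in Gfap-rich nuclei of vehicle libraries lies at 4.1 to 10.4.

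The same contrast inside each treatment separated the genes. In the 3 LPA libraries all 9 were called higher in Gfap-rich nuclei (11.8% of genes tested there, and 77.9% of those called higher with LPA in astrocytes), by 1.60 (Sorcs1) to 3.44 (C530044C16Rik) on the log2 scale. In the 3 vehicle libraries 7 of 9 were called, where 2.85% of genes were, and 20.8% of those called higher with LPA. Aspg was higher by 3.42 (SE 0.40), A2m by 2.62 (SE 0.24), C530044C16Rik by 2.38 (SE 0.58), Asap3 by 1.74 (SE 0.22), Cpne8 by 1.17 (SE 0.21), Cacna2d3 by 0.78 (SE 0.15) and Neat1 by 0.77 (SE 0.17). Sorcs1 differed by 0.32 (SE 0.20) and Pawr by -0.40 (SE 0.59), neither called, with Pawr higher in 1 of 3 vehicle libraries. The 2 separate fits hold different numbers of nuclei, and the difference between treatments was not tested.

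Pawr showed the contrast most plainly. In Gfap-rich nuclei it was at 68.9, 90.6 and 80.6 CPM with LPA, and at 7.2, 10.4 and 4.1 with vehicle, where it rested on 2, 4 and 1 UMIs. In the other astrocytes it was at 27.7, 21.7 and 21.1 CPM with LPA and at 12.7, 10.0 and 10.4 with vehicle. Pawr was thus low in vehicle astrocytes of either kind. With DESeq2 in place of edgeR its Gfap-rich difference over 6 libraries was 0.94 (adjusted p = 0.322), and 8 of 9 genes were called.

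A2m, in contrast, followed Gfap in both treatments. It was at 205.0, 222.5 and 171.8 CPM in Gfap-rich nuclei of LPA libraries and at 85.8, 101.5 and 95 in those of vehicle libraries. The other astrocytes held 33.6, 32.2 and 31.7 CPM with LPA and 18.4, 15.1 and 16.8 with vehicle. The lowest Gfap-rich vehicle value of A2m was therefore above its highest value in other LPA astrocytes.

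C530044C16Rik differed from A2m in this respect. It was at 172.6, 168.5 and 174.3 CPM in Gfap-rich LPA nuclei but at 25, 15.6 and 12.4 in Gfap-rich vehicle nuclei, a range that overlapped with the 16, 18.5 and 14 of other LPA astrocytes. Other vehicle astrocytes held 4.1, 3.6 and 2.9 CPM. Aspg lay between these patterns, at 145.6, 142.2 and 173.4 CPM in Gfap-rich LPA nuclei, 28.6, 46.8 and 57.8 in Gfap-rich vehicle nuclei, 18.1, 19.1 and 18.9 in other LPA astrocytes and 5.1, 3.4 and 5.3 in other vehicle astrocytes.

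**Figure D2:**
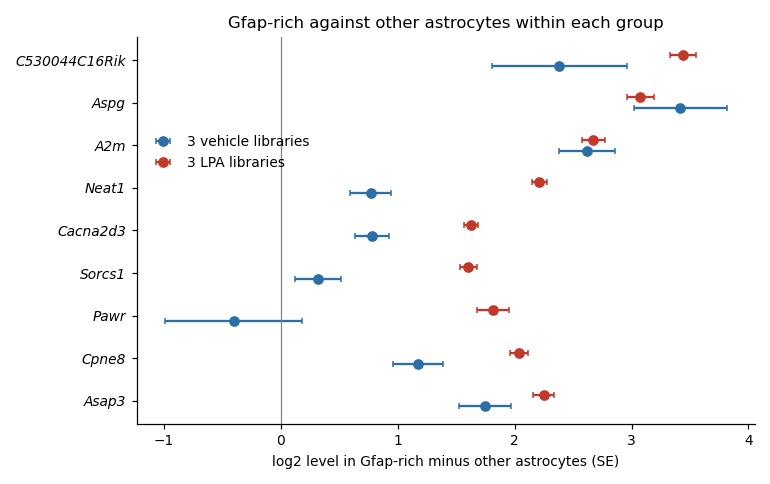
Log2 difference between Gfap-rich and other astrocytes of each gene fitted in the 3 LPA libraries and in the 3 vehicle libraries, with bars of 1 standard error. Aspg and A2m have like values in both fits, whereas Pawr (1.82 with LPA, -0.40 with vehicle) and Sorcs1 (1.60, 0.32) do not. The difference between the fits was not tested.

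Among the membrane and trafficking genes, Cacna2d3 was at 495.5, 489.5 and 556.5 CPM in Gfap-rich LPA nuclei and at 146.6, 200.4 and 185.8 in Gfap-rich vehicle nuclei. Sorcs1 was at 297.6, 299.6 and 332.1 CPM against 64.4, 78.1 and 111.5, and the latter overlapped with its 68.2, 71.0 and 75.2 in other vehicle astrocytes. Asap3 was at 201.1, 209.0 and 208.0 CPM against 75.1, 106.7 and 78.5. For all 3 the LPA and vehicle ranges stayed apart.

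Cpne8 was at 299.2, 265.4 and 281.1 CPM in Gfap-rich LPA nuclei and at 143.1, 72.9 and 49.5 in Gfap-rich vehicle nuclei, where the first library was well above the other 2. Neat1 was at 496.3, 413.2 and 471.8 CPM against 135.9, 93.7 and 148.6. In the other astrocytes Neat1 was at 100.1, 100.1 and 107.3 CPM with LPA and at 83.5, 72.2 and 76.6 with vehicle, the smallest LPA difference of any of the 9 genes in those nuclei (0.40 on the log2 scale).

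Within Gfap-rich nuclei the LPA minus vehicle differences ranged from 0.99 (A2m) to 3.27 (Pawr) on the log2 scale, and within the other astrocytes from 0.40 (Neat1) to 2.21 (C530044C16Rik). With all astrocyte clusters together, every gene was higher in each LPA library than in each vehicle library within both kinds of nuclei. Gfap itself differed by -0.01 within Gfap-rich nuclei, where the groups overlapped, and by 0.36 within the others. These values use the contrast that chose the genes and are given as a description.

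Setting the Gfap-rich share to 12.8% of astrocyte UMIs, its mean over the 6 libraries, gave the difference with the levels inside each kind of nucleus kept as measured. The log2 difference went from 3.40 to 2.71 for C530044C16Rik, from 2.71 to 1.81 for Aspg and from 1.59 to 0.95 for A2m. It went from 1.68 to 1.52 for Pawr, which kept 90.9% of its log2 difference, the largest part of the 9, while A2m kept 59.8%, the smallest. The others kept 65.5% (Asap3) to 80.6% (Sorcs1), and the LPA and vehicle libraries did not overlap for any of the 9. The shares of the astrocyte clusters inside each kind of nucleus were not held equal.

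**Figure D3:**
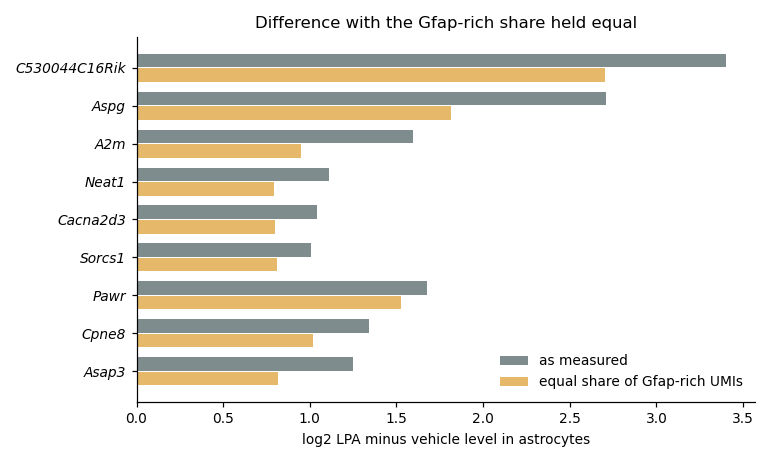
LPA minus vehicle log2 difference in astrocytes as observed and with the Gfap-rich share of UMIs set to 12.8% in every library. Every gene moves toward 0 and none reaches it, and Pawr moves least in proportion.

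A2m rose stepwise with Gfap in both treatments, and Pawr did not. In LPA libraries mean A2m was 25.7, 53.9, 94.3, 175 and 320 CPM in astrocytes with 0, 1, 2, 3 to 4, and 5 or more Gfap UMIs, and in vehicle libraries 15.1, 23.7, 60.4, 96.8 and 228. Pawr over the same bins went 17.9, 41.8, 66.0, 88.9 and 85.5 CPM with LPA, but 10.1, 15, 8.35, 6.63 and 6.37 with vehicle. Mean Pawr therefore climbed with Gfap in LPA libraries up to the bin of 3 to 4 Gfap UMIs and did not climb in vehicle libraries. The vehicle bins of 2, 3 to 4, and 5 or more Gfap UMIs rest on 4, 2 and 1 Pawr UMIs. The bins hold all astrocyte clusters together.

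At the limit that defines Gfap-rich nuclei, those with 1 Gfap UMI (763 with LPA, 548 with vehicle) lie just outside and those with 2 (315 and 133) just inside. C530044C16Rik was at 42.6 CPM just outside and 100 just inside in LPA libraries, and at 7.03 and 2.54 in vehicle libraries, where the latter is 1 UMI. Neat1 went from 161 to 310 CPM with LPA and from 89.6 to 114 with vehicle. These values carry no test.

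**Figure D4:**
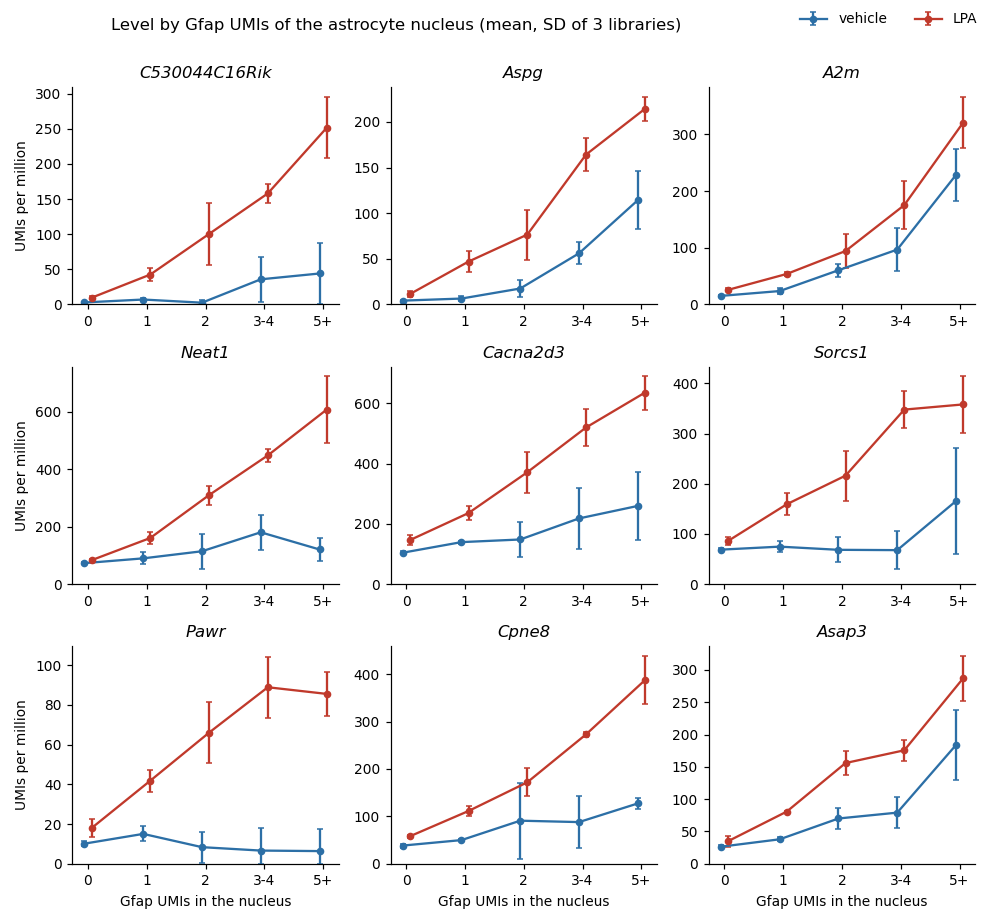
Mean level (CPM, bars 1 SD over 3 libraries, cut at 0) of each gene in astrocytes binned by Gfap UMIs, for LPA and vehicle libraries. LPA lines rise across bins apart from the last bin of Pawr. The vehicle lines of A2m, Aspg, Asap3 and Cacna2d3 also rise at each bin, while that of Pawr stays between 6.37 and 15.

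The share of nuclei with a UMI was compared after thinning each nucleus to 2000 UMIs, which left out 83 to 116 shallower astrocytes per LPA library and 105 to 378 per vehicle library. A C530044C16Rik UMI was found in 20.4% ± 1.11 (SD, n = 3) of Gfap-rich and 1.99% ± 0.30 of other LPA astrocytes, and in 3.64% ± 0.63 of Gfap-rich and 0.74% ± 0.28 of other vehicle astrocytes. Without thinning these shares were 26.9%, 3.11%, 5.03% and 0.99%. In oligodendrocytes other than precursors, a type with very little of this RNA, the share was 0.16% with LPA and 0.03% with vehicle at 2000 UMIs. Unthinned it was 0.52% and 0.07%, at median depths of 6182 and 4852 UMIs. Aspg was found in 24.9% ± 1.55 of Gfap-rich LPA nuclei and 9.17% ± 4.73 of Gfap-rich vehicle nuclei (35.5% and 12.5% unthinned). Beside this it was found in 0.29% and 0.16% of these oligodendrocytes (0.91% and 0.40% unthinned).

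The 3 astrocyte clusters, formed without the 9 genes, Gfap or the listed genes among the clustering features, held the 9 genes unequally. Cluster 0 was led by Grin2c, cluster 2 by Agt and Slc6a11, and cluster 9, with 1306 LPA and 602 vehicle nuclei, by Myoc and Thbs4. Cluster 9 held 73.7% to 75.6% of Gfap-rich nuclei with LPA and 48.8% to 52.2% with vehicle. C530044C16Rik was at 185 CPM in cluster 9 of LPA libraries and at 5.03 and 4.22 in clusters 0 and 2. Neat1 was at 502 CPM there and at 81.5 and 45.6 in clusters 0 and 2, close to its vehicle values of 86.9 and 37.7. Among nuclei of cluster 0 with fewer than 2 Gfap UMIs, Sorcs1 was at 53.1 ± 4.66 CPM with LPA and 57.7 ± 2.08 with vehicle. Neat1 was at 79.4 ± 6.91 and 86.9 ± 3.74 there, whereas the other genes had the higher mean with LPA. In Gfap-rich nuclei of cluster 9 every mean was higher with LPA, but the A2m ranges overlapped. Among Gfap-rich nuclei of cluster 2 (47 and 39), only C530044C16Rik, Aspg and Cacna2d3 had the higher mean with LPA. Clusters are compared here without a test.

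Cluster 9 was also split by Gfap, though most vehicle Pawr counts lay outside it. Cluster 0 held 65 Pawr UMIs (7.65 ± 0.89 CPM) in its 2722 vehicle nuclei with fewer than 2 Gfap UMIs. Pawr had 56 UMIs (65.2 ± 26.8 CPM) in the 460 vehicle nuclei of cluster 9 with fewer than 2 Gfap UMIs and 2 UMIs in the 142 Gfap-rich ones. In LPA libraries it was at 122 ± 27.4 CPM in the former and 103 ± 14.5 in the latter. Sorcs1 had the same order in vehicle nuclei of cluster 9, at 228 ± 31.2 CPM in those with little Gfap and 153 ± 84.1 in Gfap-rich ones. So did Cacna2d3 (331 ± 102 and 284 ± 81.2) and Cpne8 (113 ± 19.6 and 105 ± 56.1), and for each of these genes the ranges overlapped. C530044C16Rik, Aspg, A2m, Neat1 and Asap3 had the higher mean in the Gfap-rich vehicle nuclei of this cluster. Summed markers of ciliated ependymal cells, which express Pawr, were at 299 to 422 CPM in cluster 9 of vehicle libraries and 33.3 to 43.0 in cluster 0, and at 272 to 349 and 54.2 to 62.5 with LPA. Their part in the Pawr values was not tested.

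Over all astrocytes the summed ciliated ependymal markers were at 111 to 122 CPM with LPA and 59.0 to 76.8 with vehicle, and 3 of 9 tested were called higher. Oligodendrocyte markers moved the other way in astrocytes, at 1037 to 1226 CPM with LPA and 1270 to 1746 with vehicle, and 6 of 13 were called lower. Markers of neurons, which hold more Cacna2d3 and Sorcs1 than astrocytes, were at 2337 to 2636 CPM with LPA and 1968 to 2143 with vehicle. Of these 14 markers 1 was called higher. Meningeal markers were at 182 to 193 CPM with LPA and 242 to 266 with vehicle, and 5 of 11 tested were called lower. The part of any of these lists in the levels of the 9 genes was not tested. Astrocyte markers themselves summed to 27651 to 29038 CPM with LPA and 29915 to 30781 with vehicle.

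Which other genes shared the pattern was described by Pearson's r over the 12 astrocyte sums (6 libraries, Gfap-rich and other), which share libraries, among 13446 genes. C530044C16Rik was most like Gm973 (r = 0.986) and Rfx2 (0.984), a factor for cilia genes. Aspg was most like the complement gene C4b (0.980) and Angpt1 (0.979), A2m most like Arhgef17 (0.986) and Dgki (0.982), and Asap3 most like Stat3 (0.982) and Bmpr1b (0.981). Neat1 was much like Adamtsl3 (0.984), Cacna2d3 much like Enox1 (0.986), Sorcs1 most like Ube2e2 (0.990) and Psme4 (0.983), Pawr most like Arnt2 (0.982) and Map3k14 (0.978), and Cpne8 most like Epb41l4a (0.982) and Slc43a3 (0.976). Among the 9 themselves r was highest for A2m with Asap3 (0.978) and lowest for A2m with Pawr (0.53).

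Most relatives and partners of the 9 genes were not called. Of 58 tested in astrocytes, 6 were called higher with LPA and 1 lower (7.63% of all genes tested were called in either direction), with a median log2 difference of 0.01. Cd109, a relative of A2m, was higher by 0.87 (25.5 ± 2.53 against 14.4 ± 3.80 CPM), and Lrpap1, the chaperone of the A2m receptor, fell by 0.34. Of 12 calcium channel subunits 4 were called higher, which were Cacnb2 (0.62), Cacna1c (0.41), Cacna1a (0.29) and Cacna1d (0.27). The copine Cpne2 was higher by 0.43. Without vehicle library 2 the number of calls fell from 7 to 3.

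Beside Neat1, 10 genes were tested, made up of paraspeckle protein genes and Malat1, and none was called. Malat1 differed by -0.01. No call was made either among 5 asparaginase and asparagine genes, 4 VPS10 receptors, 5 Pawr partners or 10 Arf genes. In the Gfap-rich contrast 6 of 55 relatives and partners were called higher and 4 lower, a share close to the 16.3% of all genes called there in either direction. Cacnb2 (1.27) and Cacna1c (1.25) were among the former and Lrp1 (-0.59), the receptor that clears A2m with its bound protease, among the latter.

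Of 37 genes widely used to mark reactive astrocytes 19 could be tested, of which 10 were called higher with LPA and 1 lower, with a median of 0.57. Ggta1, which makes a cell-surface sugar, was higher by 2.54, the hyaluronan receptor Cd44 by 1.85, the oncostatin M receptor Osmr by 1.60, the complement inhibitor Serping1 by 1.56 and the sphingosine 1-phosphate receptor S1pr3 by 1.33. Stat3 was higher by 0.48, Vim by 0.59 and Cp by 0.55, the last 2 not with DESeq2. Fkbp5, a glucocorticoid-induced gene, fell by 1.38. In the Gfap-rich contrast 19 of 21 were called higher (9.59% of all genes tested there were). Gfap, which defines that contrast, is among these lists, as is Cd109 in both sets of lists.

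Genes next to the 9 were tested for shared change. Of 5 flanking genes with enough counts, Kif26a (0.03), Iqsec3 (0.20), Malat1 (-0.01) and Ppp1r12a (0.18) were not called. Tcea3, a transcription elongation factor gene that begins 2513 bp past Asap3 on the same strand, was higher by 1.85 (SE 0.36, adjusted p = 0.00317) with LPA and by 3.04 in Gfap-rich nuclei, on 86 UMIs in all. The 2 tested features inside Cacna2d3 on the opposite strand, looked at after their values were seen, were Gm48003 (1.12, adjusted p = 0.0260, lost when any library but vehicle 2 was left out) and Lrtm1 (0.99, adjusted p = 0.0791). Whether reads of a gene were assigned to its neighbor was not tested.

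**Figure D5:**
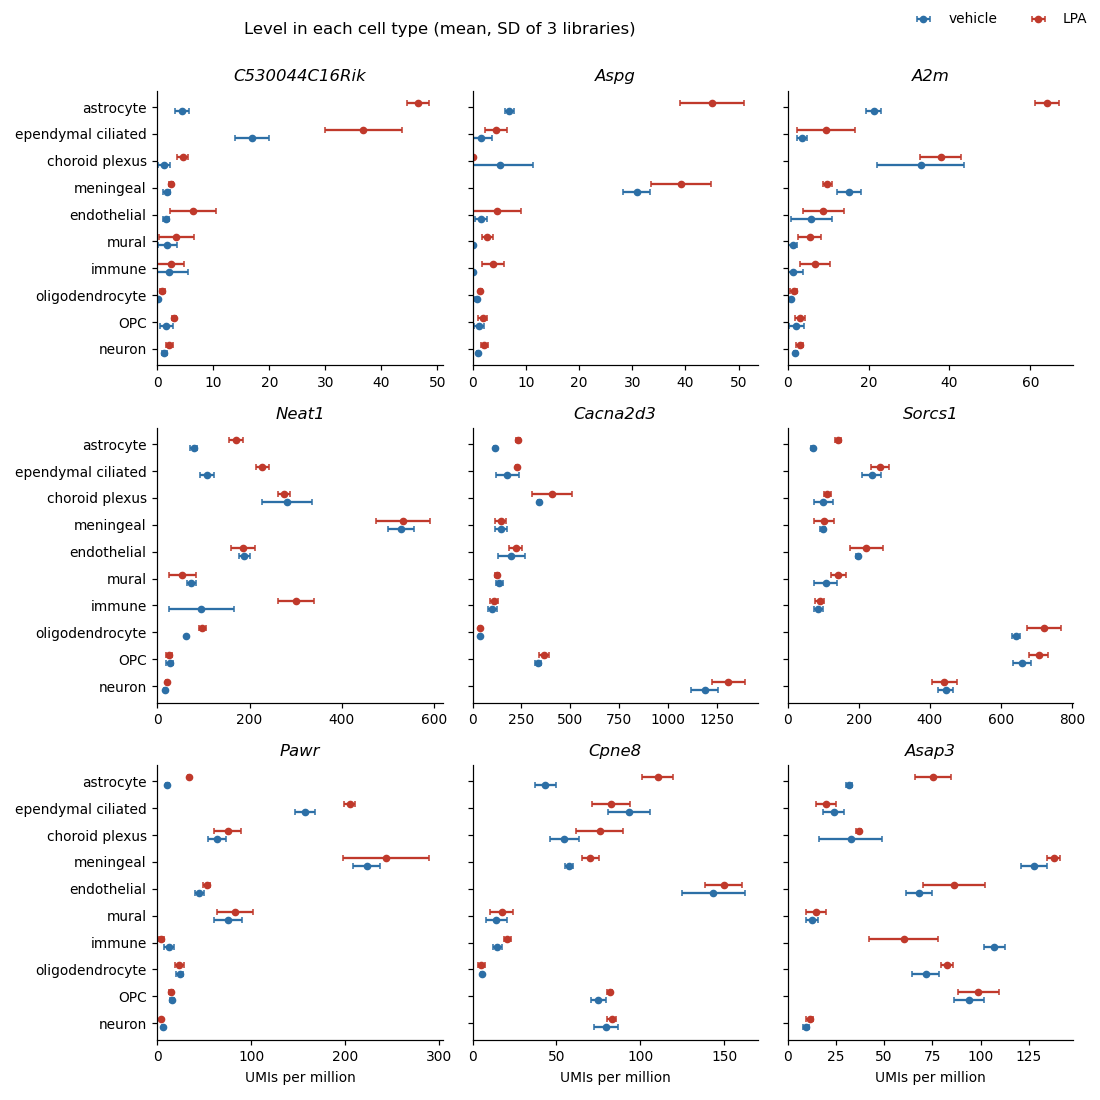
Mean level of each gene (CPM, linear axis from 0, bars 1 SD over 3 libraries, cut at 0) in each of 10 cell types with LPA and vehicle. With LPA, C530044C16Rik, Aspg and A2m are highest in astrocytes, whereas Cacna2d3 is highest in neurons and Neat1 in meningeal nuclei.

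In vehicle libraries none of the 9 genes had its highest level in astrocytes. Neat1 was highest in meningeal nuclei (529 ± 28.2 CPM), then in choroid plexus (281 ± 54.3), with astrocytes at 78.7 ± 7.36. Pawr was highest in meningeal (223 ± 14.3) and ciliated ependymal nuclei (158 ± 11.0), with astrocytes at 10.5 ± 1.30, where they overlapped with immune cells. Cacna2d3 was highest in neurons (1190 ± 69.7), and Sorcs1 in oligodendrocyte precursors (OPCs, 660 ± 26.2) and oligodendrocytes (643 ± 11.0), which overlapped, and lowest in astrocytes (70.5 ± 4.24), which overlapped with immune cells.

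Aspg was highest in meningeal nuclei (30.9 ± 2.56) and A2m in choroid plexus (32.9 ± 10.7), with astrocytes second for both (6.89 ± 0.86 and 21.3 ± 1.95). For A2m these 2 types overlapped, and for Aspg astrocytes overlapped with choroid plexus (5.17 ± 6.24, from 0 to 12.1), so that its second place is not separated. C530044C16Rik was highest in ciliated ependymal nuclei (16.9 ± 3.08) and then in astrocytes (4.41 ± 1.24). Cpne8 was highest in endothelial nuclei (144 ± 18.6) and Asap3 in meningeal nuclei (128 ± 6.89). In LPA libraries astrocytes came first for C530044C16Rik (46.6 ± 1.97), Aspg (45.0 ± 6.02) and A2m (64.1 ± 3.05), and the ranges of astrocytes and meningeal nuclei overlapped for Aspg.

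In neurons none of the 9 was called (0.0532% of genes were, in either direction). By unadjusted p below 0.05 in edgeR's test there were 5, beside 7.05% of all genes tested there, and DESeq2 called 0. In LPA libraries C530044C16Rik, Aspg and A2m were at 4.59%, 4.96% and 4.63% of their astrocyte level in neurons and at 3.41%, 3.63% and 3.14% in the oligodendrocyte lineage. The 14 astrocyte markers had medians of 4.42% and 3.25% there. In vehicle libraries these genes were at 27.9%, 14.3% and 8.98% in neurons and at 9.42%, 12.6% and 5.64% in the lineage. The marker medians were then 4.24% and 2.81%, and C530044C16Rik and Aspg lay above the highest markers (11.5% and 8.26%). The low levels in neurons and the oligodendrocyte lineage were not read as expression there, and their source was not tested.

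In ciliated ependymal nuclei, which line the ventricles and move the fluid, 2 of the 9 were called higher with LPA when this type was fitted alone (4.16% of genes were called). C530044C16Rik went from 16.9 ± 3.08 to 36.8 ± 6.89 CPM (log2 1.07, adjusted p = 0.0342) and Neat1 from 107 ± 15.1 to 227 ± 14.2 (log2 1.06, adjusted p = 3.93e-05). Gfap rose there too, from 18.8 ± 5.24 to 63.8 ± 11.2 CPM (log2 1.80), as it did in the summed neurons (1.16), oligodendrocyte lineage (1.11), immune cells (1.78) and vascular cells (0.93), each called higher with LPA. The part of astrocyte RNA in these values was not tested. Pawr differed by 0.39 (adjusted p = 0.0862).

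Choroid plexus nuclei gave none (0.0397% of genes). With both ependymal types summed, C530044C16Rik (1.43) and Pawr (0.53) were called (4.14% of genes), and ciliated nuclei were 56.6% to 64.8% of that class with LPA and 44.2% to 56.5% with vehicle. Without Scrublet's doublets neither was called in the summed class. The ependymal level of C530044C16Rik with LPA was 49.5% of the astrocyte level, and 1 of 14 astrocyte markers was at or above that share.

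In immune cells, Neat1 was at 275.0, 305.1 and 356.8 CPM with LPA and at 63.9, 51.7 and 182.0 with vehicle, higher by 2.01 on the log2 scale (SE 0.22, adjusted p = 6.75e-09). The vehicle libraries held 112, 320 and 96 immune nuclei with 56 Neat1 UMIs in all, and the third stood above the other 2. Of its 22 Neat1 UMIs, 19 lay in 1 nucleus. At the finer clustering, looked at after these values were seen, the immune nuclei fell into a cluster led by Selplg and Siglech and a cluster led by Gpnmb and Atp6v0d2. Another cluster named immune at that resolution, led by F13a1 and Cd163 (319 nuclei), lay outside the immune cells of these values. Of the 2 clusters that made up the immune cells, the share of each differed between LPA and vehicle. The cluster led by Gpnmb held 34.7% to 48.8% of immune nuclei with LPA (538 nuclei) and 0% to 1.04% with vehicle (2 nuclei). It also held 672 of the 828 Neat1 UMIs of LPA immune nuclei. In the cluster led by Selplg, Neat1 was at 104, 86.4 and 127 CPM with LPA and at 60.2, 49.6 and 25 with vehicle. These rest on 156 and 37 UMIs, and the groups did not overlap there. The part of this unequal makeup in the summed Neat1 value was not tested. Asap3 went the other way, at 77.8, 67.3 and 42.2 CPM with LPA against 115.1, 105.6 and 115.8, lower by -0.81 (adjusted p = 0.0240). Of 5 of the genes tested these 2 were called (9.01% of genes), and the Asap3 call was lost with DESeq2, without the mitochondrial filter, without doublets, at a finer clustering, without LPA library 3 and without any 1 of the vehicle libraries.

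In oligodendrocytes other than precursors Neat1 rose from 62.9 ± 1.92 to 96.9 ± 7.69 CPM (log2 0.65, adjusted p = 9.90e-04). No other of the 7 genes tested was called there (0.689% of genes were). Markers of this type included Enpp6, so it was not limited to mature cells, and its stages were not compared. OPCs gave none of 6 (0.195% of genes). Summed over the lineage, 4 of 9 were called higher (12% of genes), namely C530044C16Rik (1.93), Cpne8 (0.68), Cacna2d3 (0.63) and Neat1 (0.36). Of the 14 astrocyte markers 4 were called higher there too (summed 1529 to 1761 CPM with LPA and 1277 to 1420 with vehicle), and their part in the C530044C16Rik value was not tested. Cpne8 and Cacna2d3 were at -0.05 and 0.13 in oligodendrocytes and at 0.14 and 0.14 in OPCs fitted alone. OPCs, which hold more of both RNAs, were 42.3% to 48.0% of the lineage with LPA and 25.5% to 29.3% with vehicle.

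In vascular cells Cpne8 was called higher (0.36, adjusted p = 0.0443) and Neat1 lower (-0.30, adjusted p = 0.0442) of 8 tested (6.35% of genes were called). Neither was called in meningeal (0.5% of genes), endothelial (0%) or mural nuclei (0.116%) alone, and Neat1 was at 0.03 in meningeal nuclei. Both summed calls were lost at a finer clustering and when vehicle library 2 or 3 or LPA library 3 was left out. Meningeal nuclei, the type with most Neat1, were 44.5% to 51.2% of vascular nuclei with LPA and 66.0% to 71.2% with vehicle. Outside astrocytes, Neat1 was called higher in ciliated ependymal nuclei and oligodendrocytes fitted alone, and in immune cells, whose makeup differed between LPA and vehicle. The makeup of the ciliated ependymal nuclei and of the oligodendrocytes by stage was not compared.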

How the data were processed

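Nuclei of 3 LPA and 3 vehicle brains, grouped by the labels, were profiled with the 10x 3′ v3 kit. The authors made the deposited filtered matrices of raw UMI counts with Cell Ranger 4.0.0 on a pre-mRNA reference of mm10. Barcodes with under 300 genes, over 1% mitochondrial UMIs or UMIs past the upper quartile by 1.5 interquartile ranges were removed here. Scanpy 1.11.5 and leidenalg 0.10.2 (Python 3.11.15) clustered nuclei at resolution 1 on 3000 variable genes without markers, the 9 genes and listed genes. Clusters were named from fixed markers, with the limits on marker scores set after clusters were seen. Doublets called by Scrublet were kept, and left out as an alternative. Counts were summed per library and cell type and tested with edgeR 4.0.16 (R 4.3.3, quasi-likelihood, TMM, filterByExpr, Benjamini-Hochberg). DESeq2 1.42.0 was an alternative. On simulated counts the astrocyte fit recovered 91.5% and the immune fit 61.0% of 200 changed genes, at a median log2 difference of 1.02 and 0.99. Of the calls in these fits 8.04% and 5.43% were false, and 9.95% in the neuron fit. With a median of 2465 to 3646 UMIs per astrocyte nucleus by library and Gfap class, genes of few UMIs were measured with counting error that is large in the Gfap-rich vehicle nuclei.

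The 9 genes, the gene lists and the Gfap limit of 2 UMIs were chosen with earlier results of these data known. Named genes were the 9, Gfap, the called genes of the lists with the largest changes (up to 10 in each direction), the tested flanking genes and the 2 most alike genes for each of the 9, of which some are not reported here. Mouse identity of replicates comes from the labels of separate brains. Motifs were searched in RefSeq promoters of GRCm38.p6. Free RNA was not removed, and other alternatives are given with the results.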

Additional observations from a re-analysis of the deposited data

Results flagged for a closer look

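Some results went in opposite directions in different cell types, with no overlap between LPA and vehicle libraries in either, and the difference between types was not tested. Neat1 was higher with LPA in the oligodendrocyte lineage (log2 0.36), neurons (0.27), immune cells (2.01) and ependymal cells (0.30), and lower in vascular cells (-0.30). The neuron and summed ependymal values did not pass the test. In the vascular class, meningeal nuclei made up 44.5% to 51.2% with LPA and 66.0% to 71.2% with vehicle, Neat1 was at 0.03 in meningeal and -0.03 in endothelial nuclei alone, no vascular type alone was called, and the summed call was lost at a finer clustering. The immune value is a sum over clusters whose shares differed between LPA and vehicle. Pawr was higher in ependymal cells (0.53) and lower in each LPA library in immune cells, where it had too few counts to be fitted (4.29 ± 2.72 CPM with LPA against 12.1 ± 5.27 with vehicle, on 12 and 9 UMIs).

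The 7717 nuclei without a cell type name entered no comparison, and 5 of the 9 genes were higher there in each LPA library than in each vehicle library. Of the 20044 genes with at least 10 UMIs in these nuclei 9.16% had this order, and the 9 were chosen for being higher with LPA in astrocytes. Mean levels with LPA and vehicle were 8.51 and 1.91 CPM for C530044C16Rik, 13 and 6.22 for Aspg, 13.3 and 7.66 for A2m, 57.9 and 47.4 for Cpne8 and 58.7 and 53.9 for Asap3. For the other 4 the libraries overlapped. Groups of 3 libraries were not searched for outlying values.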

How the results depend on the processing

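All 9 genes were called higher in Gfap-rich astrocytes under each alternative but DESeq2 (8) and the vehicle libraries fitted alone (7), and with each library left out. Pawr was reversed at -0.40 in the latter. The median LPA difference of the 9 in astrocytes was 1.26 to 1.44 when 1 library was left out. Against 4 calls in the oligodendrocyte lineage, oligodendrocytes alone gave 1 and OPCs alone 0, with Cpne8 at -0.052 in oligodendrocytes. These fits of types apart were chosen after the data were seen, as were those by treatment.

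Against 2 calls in immune cells, DESeq2, doublets left out and clustering at resolution 2 each gave 1, and leaving out 1 library 1 to 2. Against 2 in vascular cells, DESeq2, library size alone, no mitochondrial filter, doublets left out, the replicate block and a sex term each gave 1, no filter on low counts gave 4, resolution 2 gave 0, leaving out 1 library 0 to 2, and meningeal, endothelial or mural nuclei alone 0. Neat1 in meningeal nuclei alone was 0.026. Against 2 in ependymal cells, no mitochondrial filter gave 1, doublets left out 0, choroid plexus alone 0 and leaving out 1 library 1 to 3. Relatives and partners had 7 calls, and 3 to 10 when 1 library was left out. Flanking genes had 1 call, and 2 without the filter on low counts. DESeq2 gave Tcea3 no adjusted p.

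Kif26a, not called, was reversed at -0.084 without doublets, -0.036 at resolution 2, -0.17 with a sex term and -0.198, -0.115 and -0.051 without LPA 2, LPA 3 and vehicle 1, with a highest value of 0.34 without LPA 1. Malat1 was reversed at 0.088 without LPA 2 and 0.095 without vehicle 2, with a lowest value of -0.11 without vehicle 1. The cause of these changes was not tested. Replicate numbers did not pair the libraries: deviations of same-numbered libraries correlated at -0.13 to 0.19, and apart from the vascular count the replicate block changed no count of calls by over 1.5 times. The vehicle levels of Neat1 in immune nuclei and of Pawr in Gfap-rich nuclei rest on 56 and 7 UMIs.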
